A study of Mus musculus with 4 samples.

Results

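The genes examined were 35 enzymes and transporters of glycolysis, glycogen handling and the pentose phosphate pathway, out of 17555 genes tested in mouse back skin. These genes and the marker lists used below were chosen by name, with earlier results of these data known. Each gene was represented by the brightest of its probes, and all 35 were well above background on all 4 arrays, so none was lost to the filter on dim probes. The cKO group lacked Fgf18, a secreted fibroblast growth factor, in epithelial cells positive for keratin 5, and the WT group was C57BL/6. The deleted part of the gene, the line that drove the recombination, and whether WT mice carried a floxed or recombinase allele are not given in the sources used here. Both groups were male, 42 days old, and carried the label telogen, the phase in which hair follicles rest. RNA of 3 mice was pooled per genotype and 2 one-colour arrays were run on each pool. Duplicate arrays were thus technical repeats of 1 pool, and every SE and p-value below rests on the spread between duplicate arrays. The limma fit draws that spread towards the spread over all genes, so the SE of a gene also rests on other genes. The comparison is between 2 RNA pools, and the spread between mice was not measured.

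Glycolysis converts glucose to pyruvate, which is either reduced to lactate and exported or passed to mitochondria. The pentose phosphate pathway branches off at glucose 6-phosphate and supplies NADPH and ribose, and glycogen is the stored form of glucose that phosphorylase releases. Skin epidermis and hair follicles are known for high lactate output, while the thin skeletal muscle sheet under mouse back skin, the panniculus carnosus, uses its own isoforms of several of these enzymes. Several steps therefore have a muscle isoform and at least 1 counterpart found more widely or in other organs.

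Levels are given as the signal of a probe relative to the 75th percentile of its array, so that 1 equals that percentile. They can be compared between arrays for 1 probe, but not between probes. The 75th percentile itself was 1403 and 1453 intensity units on the cKO arrays, against 1271 and 1316 on the WT arrays, and 62.1% to 69.1% of spots were well above background. Fgf18 had a relative signal of 3.63 and 3.64 on the cKO arrays, against 4.52 and 4.62 on the WT arrays, and because whole skin holds untargeted cells this probe does not check the labels. Hair shaft keratins, which mark a growing and not a resting follicle, rose in all 8 of the 8 measured of 10 listed, and 4 of these were not well above background in WT. The cKO pool thus went against its telogen label by these markers, and each result below compares pools that also differ in this way. Proliferation markers rose in 10 of 12 genes, and red cell markers rose in 2 of 4 measured genes of 6 listed. The 2 red cell markers that rose were not well above background in WT, and the other 2 were lower by limma adjusted p alone. Basal epidermis markers gave 0 calls of 7 at the call threshold, with 2 higher and 0 lower by limma adjusted p alone.

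The pathway genes were lower in the cKO pool, mostly by less than 1.5-fold. A gene was called at a limma adjusted p under 0.05, with Benjamini-Hochberg adjustment over all genes tested, and a change of at least 1.5-fold. Of the 35 genes, 5 fell (Slc16a3, Eno3, Pygm, Pgk1 and Gbe1), 0 rose and 30 were not called, against 4.82% of all genes called lower and 5.67% called higher. By adjusted p alone, 27 of the 35 were lower and 1 was higher, against 33.6% lower and 22.2% higher over all genes. The median log2 change was -0.43, against -0.05 over all genes, and 32 of the 35 changes were negative, against 57.1% of all genes. The cKO and WT arrays did not overlap for 33 of the 35 (all but Aldoc and Eno2), but the same held for 81.8% of all genes. Of the 5 calls, 4 ended when arrays were quantile normalized instead of scaled (1 member called, Slc16a3), and the median log2 change was then -0.26. By adjusted p alone, 23 of the 35 were then lower, and 13 of the 35 values moved by over 1.5 times or changed sign. In whole skin, fewer cells of a type and less RNA per cell cannot be told apart.

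**Figure D1:**
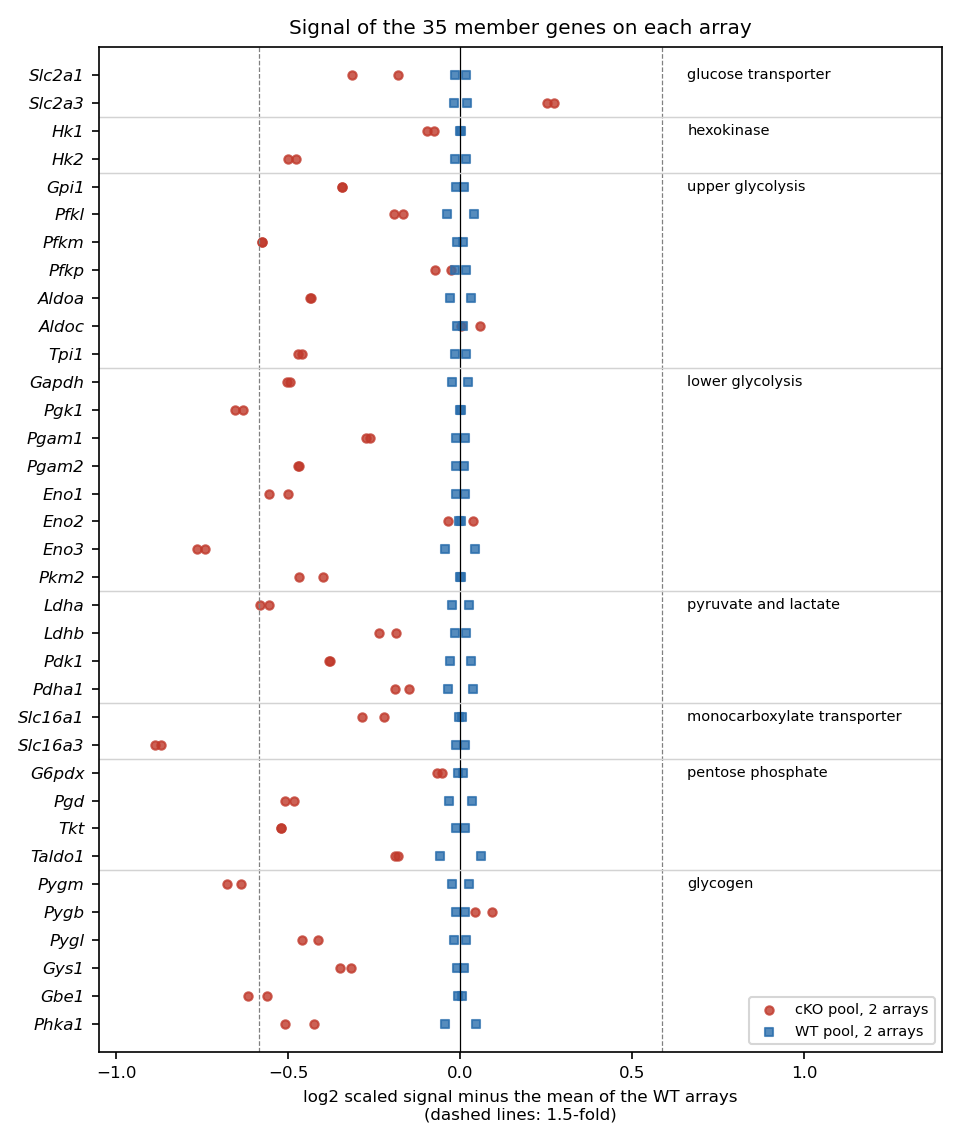
Log2 scaled signal of each of the 35 genes minus the mean of the WT arrays (horizontal axis) on the 2 cKO arrays (red circles) and the 2 WT arrays (blue squares), in groups by role. Most cKO points lie left of the WT points, and Slc16a3, Eno3, Pygm, Pgk1 and Gbe1 have a mean past the dashed 1.5-fold line.

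Entry of glucose and its first phosphorylation gave no call. Slc2a1, the widely expressed glucose transporter, had a log2 change of -0.25 with an adjusted p = 0.035, and an adjusted p = 0.058 with quantile normalization. Slc2a3, the high-affinity transporter best known from neurons, had 0.26 with an adjusted p = 0.0064. Slc2a3 was the member that was higher by adjusted p alone, at a relative signal of 0.295 and 0.300 on the cKO arrays, against 0.245 and 0.2515 on the WT arrays. The 2 transporters thus lay on opposite sides of 0, each by less than 1.5-fold. Hk2, the inducible hexokinase of muscle and fat, had a log2 change of -0.49 (SE 0.027, adjusted p = 0.0022). Hk1, the constitutive hexokinase, had -0.09 (adjusted p = 0.051), and the sign turned with quantile normalization (0.02).

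The upper segment of glycolysis splits glucose 6-phosphate into triose phosphates. Gpi1, glucose-6-phosphate isomerase, had a log2 change of -0.34, and Aldoa, the aldolase of muscle and most tissues, had -0.44. With quantile normalization Aldoa had -0.13 (limma adjusted p = 0.37) and Gpi1 -0.14 (adjusted p = 0.016). Tpi1, triosephosphate isomerase, had -0.47 from the brighter of 2 probes, -0.03 from the dimmer one, and -0.23 with quantile normalization. Aldoc, the brain-type aldolase, had 0.03 (adjusted p = 0.46), and its cKO and WT arrays overlapped. Of the 7 genes of this segment, phosphofructokinases included, 0 were called and the median log2 change was -0.34. By adjusted p alone 5 of the 7 were lower, against 33.6% of all genes.

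Phosphofructokinase, the committed step of glycolysis, has 3 isoforms. Pfkm, the muscle isoform, had a relative signal of 34.4 and 34.4 on the cKO arrays, against 51.6 and 50.9 on the WT arrays. Both cKO arrays were lower, but the change of 1.49-fold (log2 -0.58, SE 0.023, adjusted p = 0.0015) lay just under the threshold. Pfkl, the liver-type isoform, had 1.25 and 1.23 on the cKO arrays against 1.45 and 1.37 on the WT arrays, a log2 change of -0.18 (adjusted p = 0.030). Pfkp, the platelet-type isoform, had 2.46 and 2.385 on the cKO arrays against 2.54 and 2.48 on the WT arrays, a log2 change of -0.05 (adjusted p = 0.24). The arrays of Pfkl and Pfkp did not overlap between pools, although for Pfkp the higher cKO array lay close to the lower WT array.

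The lower segment of glycolysis, from glyceraldehyde 3-phosphate to pyruvate, held 2 of the 5 calls. Gapdh, glyceraldehyde-3-phosphate dehydrogenase, which is widely used as a loading control, had a relative signal of 83.7 and 84.2 on the cKO arrays, against 117 and 121 on the WT arrays. The groups did not overlap, and the change was 1.41-fold (log2 -0.50, SE 0.029, adjusted p = 0.0023), with -0.53 from a second probe and -0.30 with quantile normalization. Pgk1, phosphoglycerate kinase, had 29.5 and 29.98 on the cKO arrays, against 46.5 and 46.4 on the WT arrays. Both cKO arrays were lower, and Pgk1 fell 1.56-fold (log2 -0.64, SE 0.024, adjusted p = 0.0014), with -0.63 from a second probe. Pkm2, the file's name for the pyruvate kinase gene Pkm, had a log2 change of -0.43 (adjusted p = 0.0038). Of the 8 genes of this segment, 7 were lower by adjusted p alone, against 33.6% of all genes, and the median log2 change was -0.49.

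Phosphoglycerate mutase and enolase each have a muscle isoform. Pgam2, the muscle mutase, had a relative signal of 54.4 and 54.3 on the cKO arrays, against 74.7 and 75.95 on the WT arrays, a log2 change of -0.47 (SE 0.024, adjusted p = 0.0020). Pgam1, the widely expressed mutase, had 18.55 and 18.41 on the cKO arrays, against 22.4 and 22.04 on the WT arrays, a log2 change of -0.27 (SE 0.024, adjusted p = 0.0048). Both cKO arrays were lower for either isoform, and neither reached 1.5-fold. With quantile normalization Pgam2 had -0.26 and Pgam1 -0.12. Eno3, the muscle enolase, had 75.7 and 74.6 on the cKO arrays, against 123 and 131 on the WT arrays. Eno3 fell 1.69-fold (log2 -0.75, SE 0.041, adjusted p = 0.0022), and both cKO arrays were lower. Eno1, the widely expressed enolase, had 0.869 and 0.902 on the cKO arrays against 1.27 and 1.29 on the WT arrays, a log2 change of -0.53 (SE 0.032, adjusted p = 0.0025) from a single probe. Eno2, the neuronal enolase, had 0.5003 and 0.476 on the cKO arrays, against 0.489 and 0.487 on the WT arrays. Its arrays overlapped and the log2 change was -0.0004 (adjusted p = 0.99).

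The mutase and enolase probes are shown because the isoform comparison rests on their reading different transcripts. These are the first 30 of 60 bases of each probe as the scanner files give them, in lower case since no base was singled out. On mm9 the Pgam2 probe lies at chr11:5701822-5703040 (minus strand), the Pgam1 probe at chr19:41992898-41992957 (plus strand), the Eno3 probe at chr11:70475929-70475988 (plus strand) and the Eno1 probe at chr4:149618134-149618359 (plus strand). The Pgam2 and Eno1 spans are longer than the probes themselves. No mm9 gene models were used here, so the part of the transcript that each probe covers is not given.
Pgam2: atgggaacagccttcggggcattgtgaaac
Pgam1: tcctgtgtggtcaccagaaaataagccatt
Eno3: aaatgaggagctggagactccaggctttca
Eno1: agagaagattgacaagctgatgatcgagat
Laid along each other without gaps, the full Pgam2 and Pgam1 probes matched at no more than 20 of 60 bases, and the Eno3 and Eno1 probes at no more than 26. The longest run of bases shared by both members was 5 in either pair. Over all 6 isoform pairs the best match was 18 to 26 bases and the longest shared run 4 to 6 bases. These counts compare a probe with the other probe, and not with the transcript of the other isoform. Probes from different parts of related transcripts can differ in this way whatever they bind. The counts therefore cannot show whether a probe also reads the other isoform. Cross-hybridisation with the transcript of the other isoform was not tested. Cross-hybridisation with processed pseudogenes, which several glycolytic genes have, was not tested either.

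Pyruvate is either reduced to lactate by lactate dehydrogenase or oxidised by the pyruvate dehydrogenase complex. Ldha, the muscle-type subunit, had a relative signal of 82.1 and 83.65 on the cKO arrays, against 121 and 125 on the WT arrays, a change of 1.48-fold (log2 -0.57, SE 0.031, adjusted p = 0.0022) that lay just under the threshold. A second Ldha probe gave a log2 change of -0.70. Ldhb, the heart-type subunit, had -0.21 (adjusted p = 0.013), and -0.07 (adjusted p = 0.16) with quantile normalization. Pdk1, a kinase that inactivates pyruvate dehydrogenase, had -0.38 (adjusted p = 0.0042), and -0.13 from a second, dimmer probe. Pdha1, the catalytic alpha subunit of that complex, had -0.17 (adjusted p = 0.035), and -0.08 (adjusted p = 0.16) with quantile normalization. A second, dimmer Pdha1 probe gave -0.41. All 4 were lower by adjusted p alone, against 33.6% of all genes, and 0 were called.

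Slc16a3, the monocarboxylate transporter that exports lactate from glycolytic cells, had the greatest change of the 35 genes. Its relative signal was 5.70 and 5.77 on the cKO arrays, against 10.45 and 10.64 on the WT arrays. The cKO arrays lay close together and well under both WT arrays, and Slc16a3 fell 1.84-fold (log2 -0.88, SE 0.025, adjusted p = 0.00095). Of all genes, 1.75% were as low as this or lower. Slc16a3 was the member called lower under all 16 settings of normalization, filtering, pairing and left-out arrays. Slc16a1, the related transporter found in most tissues, had a log2 change of -0.25 (adjusted p = 0.0097).

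The pentose phosphate pathway gave no call. Its oxidative entry enzyme G6pdx, glucose-6-phosphate dehydrogenase, differed by -0.06 on the log2 scale (adjusted p = 0.11), and the sign turned with quantile normalization. Pgd, the next dehydrogenase, had -0.50 (adjusted p = 0.0032). Of the non-oxidative enzymes, Tkt, transketolase, had -0.52 (adjusted p = 0.0018) and Taldo1, transaldolase, had -0.18 (adjusted p = 0.052). A dimmer Tkt probe gave -0.97, and with the mean of its probes Tkt was called lower at -0.74. Pgd and Tkt were thus lower by adjusted p alone, and G6pdx and Taldo1 were not.

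Glycogen genes held the other 2 calls. Pygm, the muscle glycogen phosphorylase, had a relative signal of 8.63 and 8.39 on the cKO arrays, against 13.2 and 13.65 on the WT arrays. Both cKO arrays were lower, and Pygm fell 1.58-fold (log2 -0.66, SE 0.033, adjusted p = 0.0020). Pygb, the brain-type phosphorylase, had 1.94 and 1.87 on the cKO arrays against 1.80 and 1.83 on the WT arrays, a log2 change of 0.07 (adjusted p = 0.15). Pygl, the liver-type phosphorylase, had 7.32 and 7.56 on the cKO arrays against 9.95 and 10.2 on the WT arrays, a log2 change of -0.44 (adjusted p = 0.0032). The 3 phosphorylases thus ranged from a call to a small change of the opposite sign.

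Gbe1, the glycogen branching enzyme, had a relative signal of 2.24 and 2.32 on the cKO arrays, against 3.45 and 3.42 on the WT arrays. The groups did not overlap, and Gbe1 fell 1.51-fold (log2 -0.59, SE 0.031, adjusted p = 0.0021), which lay just past the threshold. The call was lost without cKO replicate 1 (log2 -0.56), without WT replicate 1 (log2 -0.58) and with the 75th percentile taken over probes detected on every array (log2 -0.56). Phka1, the muscle alpha subunit of phosphorylase kinase, had 0.174 and 0.184 on the cKO arrays, against 0.240 and 0.256 on the WT arrays, a log2 change of -0.47 (SE 0.052, adjusted p = 0.0070) in which both cKO arrays were lower. With the mean of its probes Phka1 had -0.47 with a limma adjusted p = 0.086. Gys1, the glycogen synthase of muscle and most tissues, had -0.33 (adjusted p = 0.0037). Synthesis and breakdown genes of glycogen were thus both lower by adjusted p alone, with Pygb as the exception among these 6.

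The muscle isoforms were set against their counterparts at the same step. Of the 5 muscle isoforms, 2 fell (Eno3 and Pygm), against 4.82% of all genes called lower. All 5 were lower by adjusted p alone, against 33.6% of all genes, with a median log2 change of -0.58. With quantile normalization 0 of the 5 were called lower. Of the 6 counterparts, 0 were called and 4 were lower by adjusted p alone, with a median of -0.22. Without the muscle isoforms the other 30 genes had a median of -0.34, with 3 called lower, so values below 0 were not limited to the 5 muscle isoforms. Some of the 30 are also genes of muscle, among them Aldoa, Ldha, Hk2 and Gys1. This split therefore does not separate muscle from other cells.

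The difference between the isoforms was taken within each array, so that a scaling factor per array cancels. A shift that depends on signal level does not cancel. In all 6 pairs the muscle probe was the brighter one. Over all genes the median log2 change was -0.17 at a relative signal over 10 and -0.06 from 1 to 10. The part of signal level in the isoform differences was not tested. The log2 change of Pygm minus that of Pygb was -0.72, and that of Pygm minus that of Pygl was -0.22. For phosphofructokinase the difference was -0.53 against Pfkp and -0.40 against Pfkl. Eno3 minus Eno1 gave -0.23 and Pgam2 minus Pgam1 gave -0.20. With these scaled values, muscle isoforms were lower relative to their counterparts in all 6 pairs, in both cKO arrays against both WT arrays. Arrays of the 2 pools also did not overlap for 81.8% of all genes taken singly, and the share over other pairs of genes was not computed. With quantile normalization the enolase difference was -0.02 and its arrays overlapped (exact permutation p = 1), while Pfkm minus Pfkl was -0.22 and Pgam2 minus Pgam1 -0.13. With normexp correction before quantile normalization the enolase difference was -0.07 (exact permutation p = 0.67). Between the pools, the closest arrays lay apart by 0.16 to 0.71 on the log2 scale, and duplicates differed by at most 0.02 to 0.09. The exact permutation test over arrays (two-sided) gave p = 0.33 for each pair of scaled values, which is the smallest p that 2 arrays against 2 allow, so the test could not pass 0.05. The pairs share isoforms and are not 6 independent results.

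**Figure D2:**
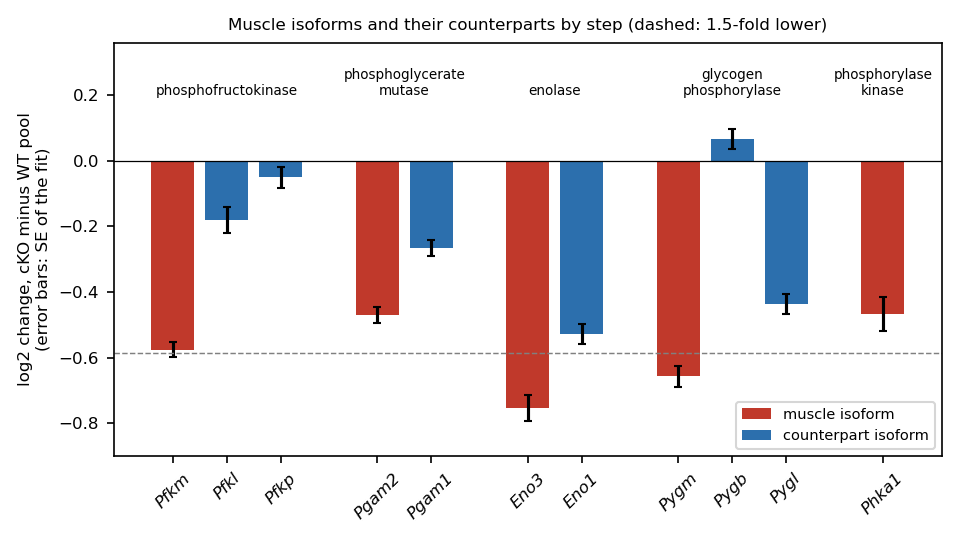
Log2 change between the cKO and WT pools (bars, with the SE of the fit) for muscle isoforms (red) and counterpart isoforms (blue) at 5 steps. In these scaled values each muscle isoform with a counterpart lies lower than it (for enolase the gap shrinks to -0.02 with quantile normalization), and Pygb is the bar above 0 (0.07).

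Skeletal muscle markers moved in the same direction. Of 25 markers (contractile, calcium-handling and energy genes of muscle fibres), 10 fell and 1 rose, against 4.82% of all genes called lower and 5.67% called higher. Their median log2 change was -0.47, and all were well above background on every array. These are scaled values, and the part of signal level in them was not tested. Their summed relative signal was 1902 and 1904 on the cKO arrays, against 2462 and 2629 on the WT arrays, a ratio of 0.748. The summed signal of the 5 muscle isoforms was 173 and 172 on the cKO arrays, against 263 and 271 on the WT arrays, a ratio of 0.646. In every such sum the brightest probes weigh most, as Eno3 does here (mean 126.8 in WT, against 0.248 for Phka1). A ratio of sums therefore does not describe each gene of its set, and ratios of different sets cannot be compared. Myh7, the slow myosin heavy chain, was the marker called higher (log2 0.60, limma adjusted p = 0.0017). Tcap was also higher by limma adjusted p alone (log2 0.23, adjusted p = 0.020). The part of the muscle content of the samples in the lower muscle isoforms was not tested. Adipocyte markers fell in 3 of 12 genes, with a summed signal of 493 and 500 on the cKO arrays, against 505 and 526 on the WT arrays, and their part was not tested either.

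Bright probes were lower in the cKO pool across the array. In bins of relative signal chosen after the values were seen, the median log2 change over all genes was -0.001 for 9180 genes under 1, -0.06 for 6771 genes from 1 to 10, and -0.17 for 1604 genes over 10. The pathway genes lay below these medians in each bin, with -0.17 for 4 genes, -0.25 for 16 and -0.47 for 15. The share of all genes called lower was 5.39%, 3.71% and 6.30% in the 3 bins, against 0 of 4, 2 of 16 and 3 of 15 pathway genes.

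**Figure D3:**
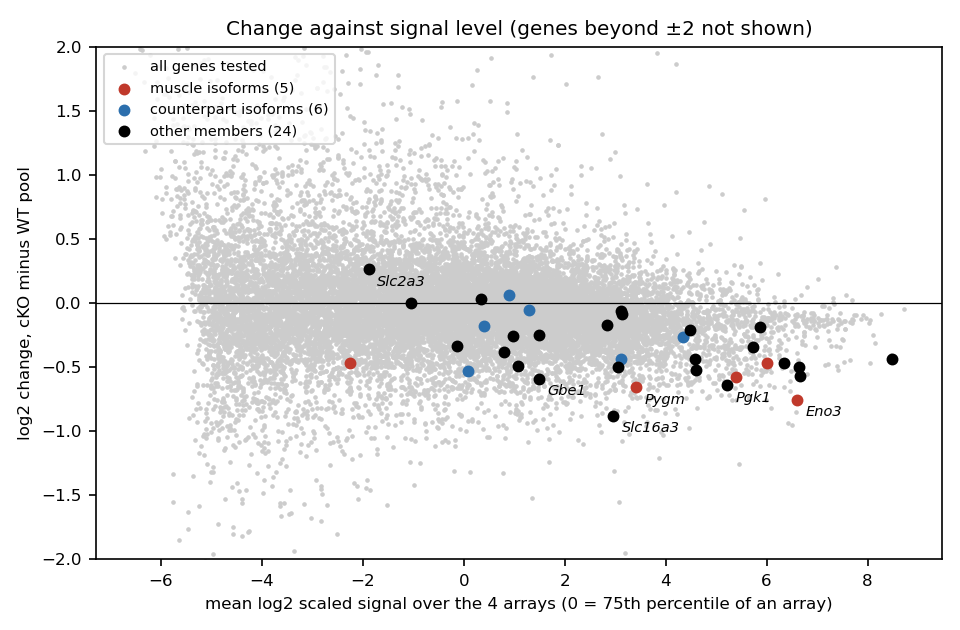
Log2 change between the cKO and WT pools (vertical axis) against mean log2 scaled signal (horizontal axis, 0 at the 75th percentile) for all genes tested (grey), muscle isoforms (red), counterparts (blue) and other pathway genes of the 35 (black). The grey cloud bends below 0 at the bright end, and most of the 35 lie under it or in its lower part.

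The bases before the transcription start were read for short motifs that the choice of the genes did not use. Promoter windows of 250 bases upstream of a start, from RefSeq on GRCm38.p6, were found for 34 of the 35 genes (47 windows), and Slc2a3 was not matched. The letters ACGTG, which form the core of the hypoxia response element, were searched on both strands and occurred in 15 of 47 windows (31.9%), against 16.6% of all 32851 windows. They occurred at least once in 13 of the 34 genes, and the share per gene over all genes was not computed. Some genes have several windows that partly overlap. Of the called members, Slc16a3 and Pgk1 had 2 matches each, Pygm had 1, and Eno3 and Gbe1 had 0. Genes not called had matches too, among them Ldha (5 in 1 window), Hk2 (2) and Slc16a1 (2). Slc16a3 (chr11:120948817-120949066, plus strand) and Pgk1 (chrX:106186850-106187099, plus strand), both called lower, are shown with each match in capitals.
Slc16a3: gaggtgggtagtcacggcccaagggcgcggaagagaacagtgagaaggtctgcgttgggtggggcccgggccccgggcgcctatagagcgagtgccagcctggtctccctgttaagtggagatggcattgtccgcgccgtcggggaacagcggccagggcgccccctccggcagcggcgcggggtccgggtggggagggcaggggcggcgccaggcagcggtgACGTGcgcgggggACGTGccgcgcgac
Pgk1: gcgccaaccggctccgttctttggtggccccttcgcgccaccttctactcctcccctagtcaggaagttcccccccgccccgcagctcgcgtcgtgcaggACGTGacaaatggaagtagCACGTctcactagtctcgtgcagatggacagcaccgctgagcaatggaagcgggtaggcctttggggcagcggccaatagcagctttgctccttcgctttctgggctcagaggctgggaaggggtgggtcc
The Slc16a3 matches lay 27 to 23 and 14 to 10 bases before the start, and the Pgk1 matches 150 to 146 and 131 to 127 bases before it. A match is a stretch of letters and not a measured binding site.

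Motifs of muscle transcription factors were searched in the same windows. The MEF2 consensus occurred in 1 of the 47 windows (2.13%), against 2.92% of all windows, and that match was in Pgam2, at 80 to 71 bases before the start. The E-box, CANNTG, is the core bound by basic helix-loop-helix factors, reads the same on both strands, and occurred in 28 of the 47 windows (59.6%), against 66.2% of all windows. By class, it occurred in 7 of 8 windows of the muscle isoforms and 2 of 8 windows of the counterparts, where some genes have several windows that partly overlap. Counted by gene, it occurred at least once in 5 of 5 muscle isoforms and 2 of 6 counterparts. The letters ACGTG occurred in 3 of 8 windows of either class. Pgam2 (chr11:5803797-5804046, minus strand) and Pgam1 (chr19:41911621-41911870, plus strand) are shown as the pair at 1 step, with MEF2 and E-box matches in capitals. The 2 motifs did not overlap in the Pgam2 window.
Pgam2: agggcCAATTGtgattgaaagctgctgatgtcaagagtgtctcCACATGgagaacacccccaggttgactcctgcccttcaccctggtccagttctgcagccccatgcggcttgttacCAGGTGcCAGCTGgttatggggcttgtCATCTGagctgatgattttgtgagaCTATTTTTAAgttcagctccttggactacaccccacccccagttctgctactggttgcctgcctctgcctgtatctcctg
Pgam1: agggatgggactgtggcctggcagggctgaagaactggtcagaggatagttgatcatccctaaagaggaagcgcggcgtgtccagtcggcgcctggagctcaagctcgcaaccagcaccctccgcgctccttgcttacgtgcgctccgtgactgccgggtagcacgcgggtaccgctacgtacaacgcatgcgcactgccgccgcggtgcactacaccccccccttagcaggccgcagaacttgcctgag
The Pgam2 window held 5 E-boxes and 1 MEF2 match, and the Pgam1 window held neither, which says only that these letters are not in that stretch.

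Other genes of carbohydrate metabolism, outside the 35, were taken from a list of 52, of which 48 were measured. Of these, 3 rose, 13 fell and 32 were not called, against 5.67% of all genes called higher and 4.82% called lower. The median log2 change of the 48 was -0.29. With quantile normalization 9 were called lower. The 3 rises were larger than any change among the 35. Pdk4, a kinase that switches off pyruvate dehydrogenase during fasting and fat use, had a relative signal of 11.2 and 11.2 on the cKO arrays, against 0.886 and 0.866 on the WT arrays. It rose 12.8-fold (log2 3.68, SE 0.026, adjusted p = 0.00011), while Pdk1 had -0.38 from its brighter probe and -0.13 from its dimmer one. Fbp1, the gluconeogenic fructose-bisphosphatase of liver and kidney, had 2.64 and 2.61 on the cKO arrays, against 0.0535 and 0.0426 on the WT arrays, and was well above background on all 4. Its log2 change was 5.78 (SE 0.13, adjusted p = 0.00069), and 4.74 with normexp correction and quantile normalization. Txnip, which restrains glucose uptake, had 17.0 and 17.1 on the cKO arrays, against 9.04 and 8.85 on the WT arrays, and rose 1.91-fold (adjusted p = 0.00090).

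Among the falls were genes of glycogen and of glucose entry into muscle and fat. Ppp1r3c, which targets protein phosphatase 1 to glycogen and favours its synthesis, had a relative signal of 5.08 and 4.85 on the cKO arrays and 12.3 on both WT arrays. It fell 2.49-fold (log2 -1.31, SE 0.034, adjusted p = 0.00089), more than any of the 35. Pgm1, phosphoglucomutase, which links glucose 1-phosphate to glycolysis, fell by 0.75 on the log2 scale. Fbp2, the muscle fructose-bisphosphatase, fell by 0.83, so that Fbp1 and Fbp2 changed in opposite directions. Pcx, pyruvate carboxylase, Slc2a4, the insulin-responsive glucose transporter, and Gpd1, glycerol-3-phosphate dehydrogenase, were also called lower, at -0.75, -0.75 and -1.26. Of the 13, 6 not named here were called lower at log2 changes from -0.60 to -0.65. Hif1a, a transcription factor known to drive glycolytic genes in low oxygen, had overlapping arrays and a log2 change of 0.01 (adjusted p = 0.94).

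**Figure D4:**
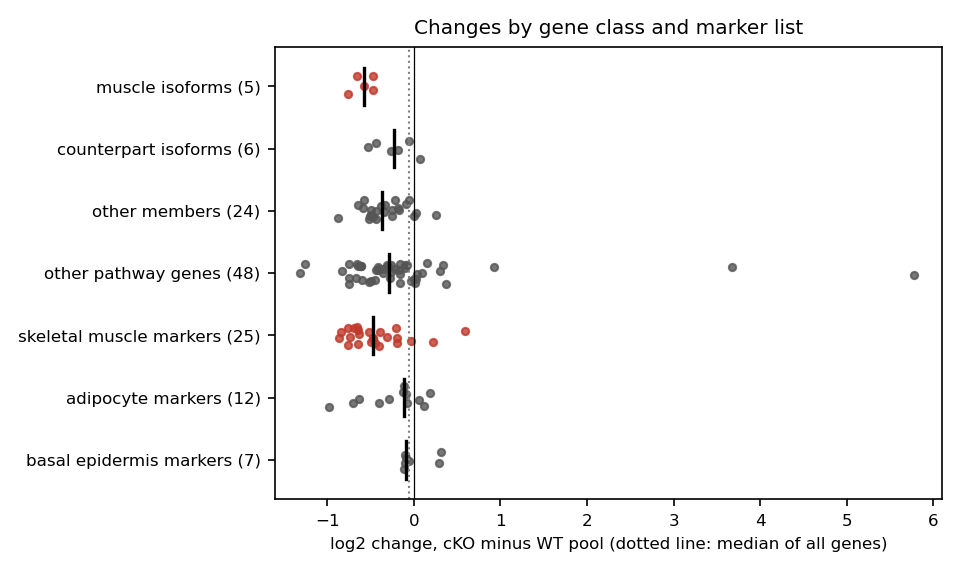
Log2 change between the cKO and WT pools for single genes (points) with the median of each set (black line), by set, numbers of genes in brackets, and the median of all genes as a dotted line. Medians of the muscle isoforms (-0.58) and skeletal muscle markers (-0.47) lie furthest below the dotted line, and the 2 points furthest right are Fbp1 (5.78) and Pdk4 (3.68).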

How the data were processed

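Full-thickness back skin RNA was measured on 4 one-colour arrays (Cy3, 200 ng of labelled polyA RNA), 2 of 1 cKO pool and 2 of 1 WT pool, grouped by the labels. Per the file headers, arrays were quantified with Agilent Feature Extraction 10.7.3.1 and annotated on mm9, and the deposited spot intensity was already background-subtracted and detrended. The authors' processed values were a linear ratio to each array's 75th percentile (that intensity times 1 number per array, uncentred, column medians 0.0983 to 0.101), and were used as an alternative. The arrays share 1 slide and 1 scan.

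From the deposited intensity, log2 was taken, and each array's 75th percentile over 43379 non-control spots (41174 probes) was subtracted. Non-uniform and outlier spots were left out, and no spot was saturated. Probes well above background on both arrays of a group were kept, and the brightest kept probe stood for a gene. The members had 65 probes, 58 kept, and 17 members had more than 1 kept probe (3 with both signs). Names were updated through RefSeq (GRCm38.p6): 26690 probes by accession, 5189 by symbol, 952 by older symbol, and 8343 kept the file's name. Depth does not apply to arrays, whose number limits the precision. The cKO minus WT contrast came from lmFit and eBayes of limma (version 3.58.1, under R 4.3.3), with Benjamini-Hochberg adjustment and no covariates, and was checked on simulated data. The data.table package (1.17.8), Python 3.11.15, pandas 2.3.3 and matplotlib 3.10.9 were also used.

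The members and the gene lists were chosen with earlier results of these data known. The text names all members, with values per array for called members, muscle isoforms, their counterparts and Gapdh. Of the called other pathway genes, the 10 with the largest change were chosen, and 1 of them is not reported here. Marker lists are given by counts and sums, although the rule allowed up to 3 genes of each. Ldha, Slc2a3, Eno2, Hif1a, Myh7 and Tcap were given in more detail, or named, after their values were seen. Same-numbered arrays did not deviate together (r = -0.04 across genes), so the numbers do not pair the arrays. Alternatives changed the background correction, normalization, scaling, filter, probe rule, outlier spots, moderation, replicate block, arrays left out and fold threshold.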

Additional observations from a re-analysis of the deposited data

How the results depend on the processing

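Slc16a3 was called lower under all 16 settings fitted. With quantile normalization 1 member and 0 muscle isoforms were called lower, and likewise 1 and 0 with normexp correction and quantile normalization, which called 481 genes lower in all. Pgk1, Eno3, Pygm and Gbe1 kept adjusted p-values under 0.05 there but missed 1.5-fold, and the median of members was -0.26 and -0.24 under these settings. The sign of Hk1 turned under both (0.0151 with quantile normalization, 0.0252 with normexp), as did that of G6pdx (0.043 and 0.0609). Taldo1 turned with quantile normalization (0.0269), and Eno2 turned with normexp (0.0017), with the 75th percentile taken over probes detected on every array (0.0323) and with the mean of probes (0.0163). At 2-fold, 515 genes were higher and 150 lower, with 0 members and 0 muscle isoforms lower. At adjusted p alone, 3890 genes were higher and 5907 lower, with 1 member higher, 27 members lower, 5 muscle isoforms lower and 4 counterparts lower. With 1 array left out, 4 to 6 members were called lower, and the log2 change of Eno2 ranged from -0.0366 to 0.0359. The lone array was then assumed to vary like the duplicates of the other pool. Gbe1 also missed 1.5-fold with the 75th percentile over probes detected on every array (-0.56). Without WT replicate 2, Pfkm was called lower (-0.59), and without WT replicate 1, Ldha was (-0.59). With the mean of probes, Ldha was called lower at -0.64. With a replicate block, 5 members and 2 muscle isoforms were called lower, 986 genes were higher and 829 lower, against 996 and 847 without it, and no call on a member changed. The 6 isoform differences kept their sign in all 90 values, from 15 alternatives. Alternatives that change only the scaling per array, the moderation or the replicate block leave these differences unchanged by design. The 90 values are therefore not separate checks. Eno3 minus Eno1 was -0.02 with quantile normalization and -0.07 with normexp, where the arrays overlapped, and Pfkm minus Pfkl was -0.22 and -0.20. Of the other pathway genes, 9 were called lower under both quantile settings, and 11 to 13 with 1 array left out. By adjusted p alone, 22 to 30 members were lower over these alternatives, 23 under both quantile settings, in which Aldoa, Ldhb and Pdha1 no longer passed. Duplicate arrays of 1 pool set the precision, and changes near 1.5-fold cross the threshold with small changes in scaling.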
